A study of Homo sapiens with 18 samples.

Results

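The wide accessible regions of T47D cells were the 2868 regions of open chromatin that spanned at least 1500 bp, out of 132604 accessible regions in all. They were picked from the deposited region list by width alone, with chromosome M left out. Width is the end minus the start in each region's name. The deposited counts were not used in the choice. The list of regions came from these same cells, however, so width is not independent of the reads. They made up 2.16% of the regions and 7.94% of the bases in regions, or 5.25 Mb. T47D cells are a human breast carcinoma line in long use that carries the progesterone receptor. R5020 (promegestone) is a synthetic progestin. Serum-starved cells received it at 0.1 nM or at 10 nM, or received the DMSO vehicle alone, and each of these 3 treatments lasted 6 h or 18 h. Omni-ATAC-seq was run on 3 libraries of each of these 6 groups, 18 libraries in all. The comparisons ask what a low and a high dose of progestin change at an early and a later time, and all groups came from this 1 cell line.

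ATAC-seq reads mark where a transposase, Tn5, could reach and cut the DNA, so more reads in a region mean that it was more accessible. Wide regions are often active promoters or clusters of neighbouring regulatory sites, where several stretches of open DNA merge into 1 called region. The progesterone receptor is a transcription factor that binds DNA once it holds a progestin, and sites it acts on can become more or less open. Fewer cells with an open region and less cutting per cell cannot be told apart in these bulk libraries. Regions are named by their hg19 coordinates as deposited. Whether the start counts from 0 or 1 is not stated there. Genes at these positions were not analysed here, since no annotation of that build was used, and the cell line was for the same reason not checked against marker genes.

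The libraries held 8756311 to 39984217 counts in regions. All 2868 wide regions had reads in every library, and all passed the filter on low counts, with a median count between 298 and 1734 per library. 2 features of the libraries touch the results below. The 5000 regions with most counts took 33.5% to 34.6% of the counts with 10 nM at 6 h, against 37.0% to 41.7% with vehicle; at 18 h they took 30.7% to 37.4% with 10 nM, against 36.0% to 40.0% with vehicle. In a principal component analysis of the wide regions, whose first component held 66.7% of the variance, replicate 1 of 10 nM at 18 h and replicate 3 of 0.1 nM at 18 h lay farthest from the centres of their groups. Their distances over the first 2 components were 27.1 and 21.4. Replicate 1 of 0.1 nM and replicate 3 of 10 nM at 18 h came next, at 20.95 and 20.2. No clear break therefore set the farthest 2 apart. Results that rest on those 2 libraries are given with and without them.

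Most wide regions were only just over the limit in width, and most were more accessible than the median of the other regions. Their median width was 1734 bp with quartiles of 1595 and 1964 bp, against a median of 386 bp over all regions. By width, 1492 spanned 1500 to 1749 bp, 730 spanned 1750 to 1999 bp, 513 spanned 2000 to 2499 bp, 109 spanned 2500 to 2999 bp and 24 spanned 3000 bp or more. Levels are given as CPM, a region's counts over the TMM-scaled library size in units of 1e6 counts, and are compared between regions per kb of width. Wide regions had a median of 24.3 CPM per kb, against 6.03 CPM per kb for the other tested regions, and 96.3% of them lay above that second value. The gap to the nearest region was alike, at a median of 5922.5 bp for wide regions and 5454 bp for the others. Their share of a chromosome's regions was 5.41% on chromosome Y, which had few regions (10 of 185). On the other chromosomes it ran from 3.44% on chromosome 17 (183 of 5324) and 3.15% on chromosome 19 (122 of 3868) down to 1.50% on chromosome 8 (129 of 8599). Strength and width overlapped in part: 1477 wide regions, or 51.5% of them, were among the 5000 regions with most counts, and they made up 29.5% of that list.

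The extremes show how much the members differ. Whether reads map uniquely at these positions, or on chromosome Y, was not examined here. The widest was chr9:66454748-66458787, at 4039 bp, and its 18 library values ran from 53.3 to 212 CPM. At each time the vehicle, 0.1 nM and 10 nM libraries overlapped. Of the 10 widest, 1 passed a test between doses: chr7:5562844-5566597 (3753 bp) had 55.2, 56.5 and 55.0 CPM with 10 nM for 6 h, against 160, 100 and 79.3 CPM with vehicle. That is a log2 fold change of -1.02 ± 0.28 (SE) with an adjusted p of 0.0095, and the groups did not overlap, though the vehicle libraries were widely spread. The densest was chr21:9825471-9827571, at a mean of 1483 CPM per kb. Its values ran from 1687 to 2990 CPM with 10 nM for 6 h, against 2300 to 4972 CPM with vehicle, and the groups overlapped. The faintest was chr12:85024967-85026509, at 2.19 CPM per kb, with 2.95, 2.27 and 2.11 CPM with 10 nM for 6 h, against 6.30, 4.38 and 4.70 CPM with vehicle. It fell 2.09-fold (adjusted p = 0.00784), without overlap of the groups.

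Some wide regions hardly varied over the 6 groups. The steadiest, chr20:62338203-62339913, had 44.4, 45.2 and 45.7 CPM with 10 nM for 6 h, against 38.0, 43.3 and 45.6 CPM with vehicle. Its 6 group means had an SD of 0.04 on the log2 scale. The next, chr5:137839413-137840961, stayed between 9.14 and 11.6 CPM in all 18 libraries. At the width limit, regions of exactly 1500 bp such as chr11:14912589-14914089, chr11:57089242-57090742 and chr7:112089902-112091402 averaged 46.2, 60.7 and 51.3 CPM per kb. Regions of 1499 bp, chr1:855199-856698, chr7:11251799-11253298 and chr17:30771037-30772536, averaged 12.3, 6.95 and 33.9 CPM per kb.

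Wide regions took a smaller share of each library's counts after 10 nM R5020 than after vehicle at both times. At 6 h they held 15.2%, 15.2% and 14.7% of the counts with 10 nM, against 17.7%, 17.0% and 16.6% with vehicle. The groups did not overlap, and the means were 15.1% ± 0.284 and 17.1% ± 0.607 (SD, n = 3 each), a difference of -2.03 percentage points. At 18 h the share was 15.5%, 15.7% and 14.7% with 10 nM, against 17.5%, 17.3% and 16.3% with vehicle, a difference of -1.70 points with no overlap. For both, the exact two-sided permutation test gave p = 0.1, the smallest that 3 libraries against 3 can give, and 0.15 after Benjamini-Hochberg adjustment over 6 comparisons, so neither could pass 0.05. With 0.1 nM the share overlapped that of vehicle at both times. The differences were -0.661 points at 6 h (exact permutation p = 0.2, adjusted 0.24) and -0.586 points at 18 h (exact permutation p = 0.4, adjusted 0.4). At 18 h each 0.1 nM library lay below the vehicle library of the same number, with differences of -0.523, -0.618 and -0.616 points. The exact sign-flip permutation test over those pairs gave p = 0.25, the smallest that 3 pairs allow. Between the doses, 10 nM lay below 0.1 nM by 1.37 points at 6 h and by 1.11 points at 18 h, again without overlap and at the smallest possible p. With the 5000 regions with most counts left out of the share, 10 nM lay below vehicle by 1.04 points at 6 h and 1.05 points at 18 h.

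**Figure D1:**
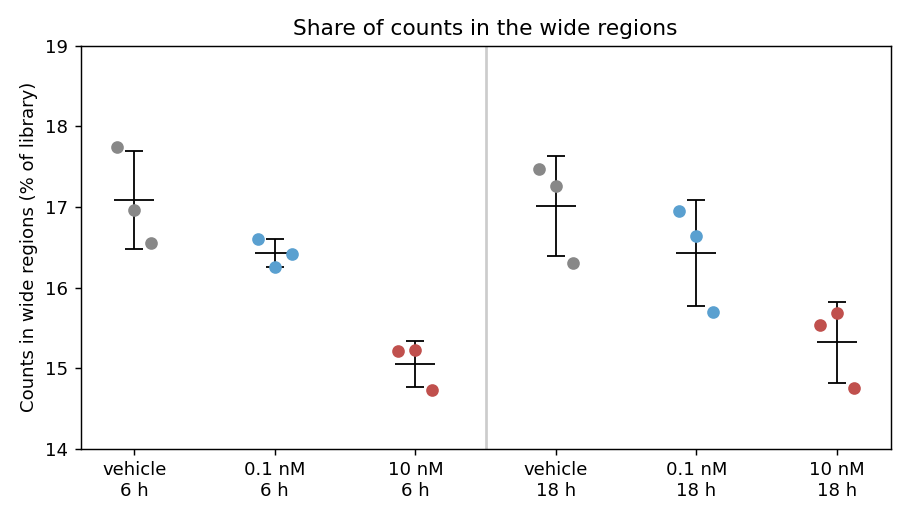
Percent of each library's counts that lay in the 2868 wide regions (vertical axis, which does not start at 0), by group. Points are libraries, bars the mean and SD of 3. The 10 nM libraries sit between 14.7% and 15.7%, below every vehicle library at both times, and the 0.1 nM libraries overlap the vehicle range.

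The same downward shift appeared region by region, and it depended on how libraries were made comparable. With TMM factors, the median log2 fold change of wide regions was -0.33 for 10 nM against vehicle at 6 h and -0.38 at 18 h, against -0.05 and 0.01 over all tested regions. Regions of 1000 to 1499 bp, under the width limit, had medians of -0.34 and -0.38, so the shift was not particular to wide regions. At 6 h the estimate was below 0 in 87.2% of wide regions, and in 52.7% of all tested regions. With RLE factors the medians of the wide regions were close to these, at -0.31 and -0.37. Scaling by total counts moved the median of all regions up by over 0.1 and that of wide regions with it, to -0.19 and -0.24, against 0.06 and 0.17 over all. When the libraries were instead aligned by a smooth curve over abundance (loess offsets), the medians of wide regions were -0.02 and 0.00, against -0.06 and -0.02 over all, so the shift was gone. With a covariate for how much of each library lay in the 5000 regions strongest over all libraries, an alternative chosen after the data were seen, they were 0.21 and 0.05, against 0.02 and -0.05, and the direction turned round at both times. At 18 h it turned by less than the spread between replicates. The share used as the covariate is itself made up in part of wide regions. At 6 h it did not overlap between 10 nM and vehicle, so dose and covariate cannot be fully told apart there. Loess offsets take out a shift that follows abundance whatever its source, and wide regions are mostly abundant ones. Whether the general shift of wide regions reflects accessibility or the make-up of the libraries was not tested, and single regions are read below by how firmly their own calls held.

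**Figure D2:**
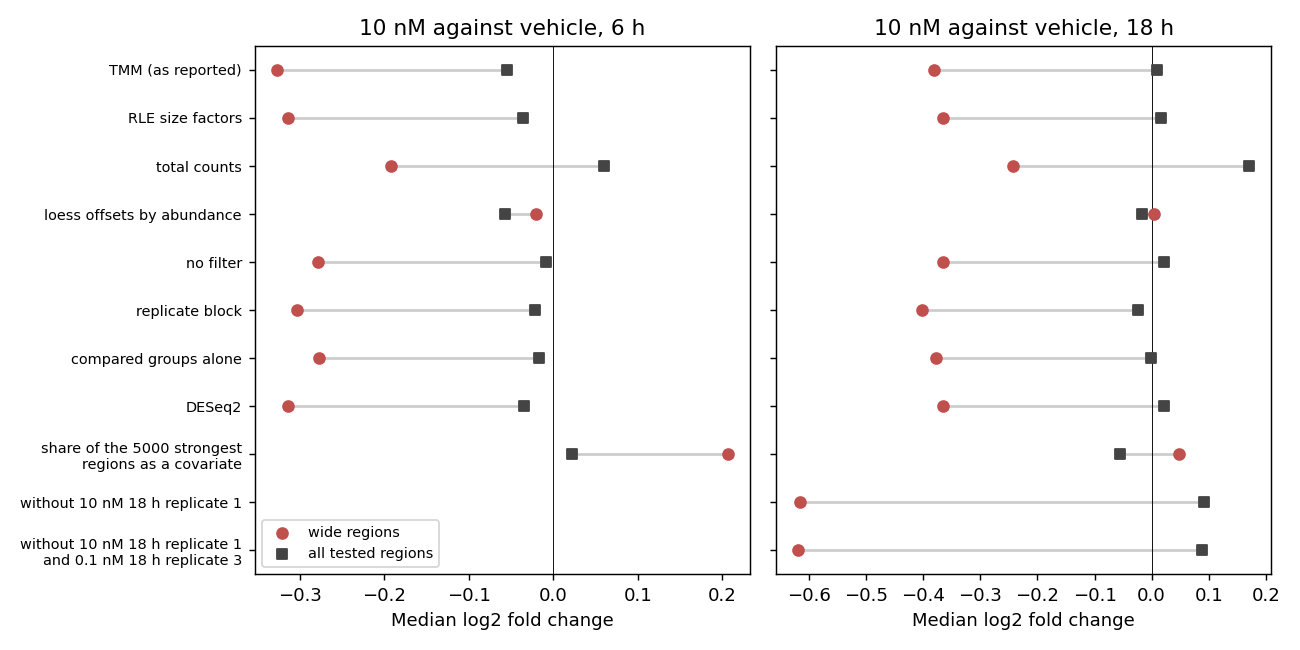
Median log2 fold change of 10 nM against vehicle (horizontal axis) for the 2868 wide regions (circles) and for all tested regions (squares), 1 line per way of processing, at 6 h (left) and 18 h (right). Wide regions lie left of all regions under the methods that scale each library by 1 factor, and not under loess offsets or with the covariate. The last 2 lines were run for 18 h only.

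Cells given 10 nM R5020 for 6 h had 80 wide regions more accessible than vehicle cells and 259 less accessible (edgeR quasi-likelihood test, Benjamini-Hochberg adjusted p under 0.05 over all 132304 tested regions). This was 2.79% and 9.03% of the wide regions. Over all tested regions the rule called 25.1%, with 16.7% higher and 8.42% lower. With these TMM factors, all libraries and no replicate block, the share that fell was near the background and the share that rose was under it. With the replicate number as a block, 19.3% of wide regions fell, against 11.6% of all, so falls were then above the background. Wide regions were measured more closely than the rest, with a median SE of 0.24 against 0.37 on the log2 scale. Their called changes were also small. The median was 1.05 among the rises and -0.80 among the falls, against 1.93 and -1.13 over all regions called; 7 wide regions rose and 14 fell by 4-fold or more, 8.75% and 5.41% of the wide calls, against 46.3% and 11.7% of all calls in those directions. The replicates of 10 nM lay wholly below those of vehicle in 1106 wide regions (38.6%) and wholly above in 149 (5.20%), against 20.4% and 24.3% of all tested regions. The difference between wide and other regions is given as a description, without a test.

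The split of calls between rises and falls moved with the processing, while a core of regions did not. Rises numbered 229 and falls 237 with loess offsets, 7.99% and 8.26% of the wide regions, against 15.7% and 9.39% of all. With the covariate they numbered 885 and 256, 30.9% and 8.93%, against 18.5% and 12.02% of all. The share that rose was then above the background, but at 6 h the covariate was itself separated by dose. Leaving out single libraries gave 66 to 78 rises and 113 to 397 falls. Without 10 nM replicate 1, 2 or 3, falls came to 113, 144 and 132. These were 3.94%, 5.02% and 4.60% of wide regions, against 4.94%, 5.365% and 5.29% of all. Without vehicle replicate 1, 2 or 3, falls came to 119, 146 and 397. These were 4.15%, 5.09% and 13.8% of wide regions, against 4.89%, 5.52% and 9.28% of all. Among these fits without a single library, only the last share was above the background. Under all 15 settings run, the reported one included, 56 of the 80 rises and 98 of the 259 falls were called in the same direction. These had median log2 fold changes of 1.21 and -1.22. Calls under every setting were not counted over all tested regions, so such a core is not shown to be particular to wide regions. No region called in 1 direction was called in the other with the covariate.

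The share of regions called differed by width below the limit as well. Rises at 6 h peaked in regions of 300 to 499 bp, where 21.7% were called, and came to 6.37% at 1000 to 1499 bp, 2.95% at 1500 to 1749 bp and 1.50% at 2500 bp or more. Falls were most frequent at 500 to 999 bp, with 15.2%, and came to 12.9% at 1000 to 1499 bp, 8.58% at 1500 to 1749 bp and 11.3% at 2500 bp or more. Across the 2868 wide regions, width and log2 fold change had r = 0.005, as a description. Calls were more frequent at low levels: of the 956 wide regions with the lowest CPM per kb 60 rose and 145 fell, of the 956 in the middle 12 and 75, and of the 956 with the highest 8 and 39. Among the 5000 regions with most counts, wide ones rose in 0.880% and fell in 5.15% of cases, and the other regions in 1.62% and 3.38%. Wide and other regions of that strength had similar medians, at -0.34 and -0.36.

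**Figure D3:**
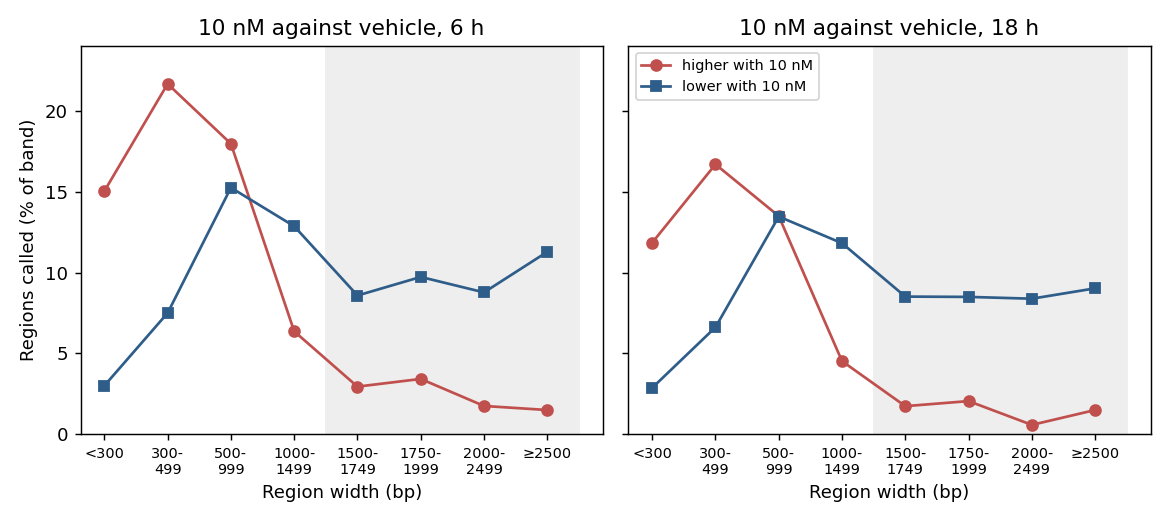
Percent of tested regions called higher (circles) or lower (squares) with 10 nM than with vehicle, by region width, at 6 h (left) and 18 h (right). The grey area marks the wide regions. Above 1000 bp falls outnumber rises in every band, and the highest share of rises is at 300 to 499 bp.

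The largest rise at 6 h was at chr2:71346292-71347951 (1659 bp). It had 48.6, 45.8 and 51.2 CPM with 10 nM, against 6.09, 5.75 and 5.18 CPM with vehicle. The lowest treated library lay far above the highest vehicle library, a rise of 8.56-fold (log2 3.10 ± 0.21 SE, adjusted p = 1.58e-08). At 18 h it held 39.6, 26.8 and 28.3 CPM with 10 nM, against 5.86, 5.40 and 6.19 CPM with vehicle, 5.44-fold (adjusted p = 1.37e-07). The 0.1 nM libraries stood between, at 19.6, 14.8 and 13.1 CPM at 6 h and 10.7, 11.1 and 8.56 CPM at 18 h.

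Other large rises differed in whether the low dose reached them. At chr2:158646093-158647621 (1528 bp), a weak region, 10 nM for 6 h gave 11.8, 11.6 and 14.8 CPM, against 1.05, 3.09 and 2.83 CPM with vehicle (5.24-fold, adjusted p = 4.21e-06). At chr4:1046723-1048669 (1946 bp), 10 nM gave 32.5, 35.7 and 38.2 CPM, against 7.56, 8.43 and 8.66 CPM with vehicle (4.30-fold, adjusted p = 1.30e-06). In both, 0.1 nM did not pass the test at 6 h or at 18 h, with log2 differences from vehicle between -0.14 and 0.49. At chr9:100882922-100884609 (1687 bp), 10 nM for 6 h gave 22.4, 22.1 and 20.6 CPM, against 3.89, 5.38 and 4.78 CPM with vehicle, and 0.1 nM gave 11.4, 10.6 and 11.1 CPM. This region rose with both doses, 4.58-fold with 10 nM and 2.33-fold with 0.1 nM (adjusted p = 6.24e-08 and 0.00064). At chr6:116380823-116382362 (1539 bp), 10 nM gave 24.5, 28.5 and 27.8 CPM, against 7.25, 7.18 and 5.59 CPM with vehicle, a rise of 4.03-fold (adjusted p = 1.50e-06).

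The largest falls were of a similar size. At chr8:108619905-108621983 (2078 bp), 10 nM for 6 h left 5.01, 3.87 and 4.65 CPM, against 57.7, 36.5 and 26.7 CPM with vehicle. The drop was 8.89-fold (log2 -3.15 ± 0.26 SE, adjusted p = 6.38e-08), with wide spread among the vehicle libraries but no approach of the groups. At 18 h it was 9.87-fold, with 2.71, 2.86 and 2.14 CPM with 10 nM, against 30.6, 24.3 and 22.0 CPM with vehicle. At 0.1 nM the region lay between these levels, with 14.2, 11.2 and 15.0 CPM at 6 h and 10.3, 7.53 and 7.49 CPM at 18 h, and was lower than vehicle at both times.

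At chr1:117420724-117422731 (2007 bp), 10 nM for 6 h left 10.2, 10.2 and 11.2 CPM, against 80.1, 64.0 and 61.1 CPM with vehicle. It fell 6.50-fold (adjusted p = 4.29e-08), the treated libraries lying close together. With 0.1 nM it held 43.2, 32.3 and 56.3 CPM, which did not pass the test against vehicle (adjusted p = 0.172). At chr17:38774834-38776578 (1744 bp), 10 nM for 6 h left 13.7, 16.0 and 17.1 CPM, against 104, 64.6 and 62.1 CPM with vehicle (4.92-fold, adjusted p = 6.63e-07). At chr10:63702788-63704571 (1783 bp), 10 nM left 7.40, 8.81 and 5.12 CPM, against 50.6, 32.3 and 24.3 CPM with vehicle (5.03-fold, adjusted p = 6.62e-06). In each of these the vehicle libraries spread more than the treated ones, with replicate 1 of the vehicle the highest.

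The remaining named falls at 6 h were alike in size. The regions chr9:12825599-12827427, chr6:139690113-139691755, chr1:215662264-215663902 and chr5:123598032-123599866 fell between 4.96-fold and 5.35-fold with 10 nM. All of them were also lower than vehicle at 18 h, by between 2.66-fold and 4.11-fold. The weakest of them, chr1:215662264-215663902, was among the 5 faintest wide regions, with 2.11, 1.38 and 1.64 CPM with 10 nM for 6 h, against 12.3, 9.06 and 4.61 CPM with vehicle.

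After 18 h of 10 nM, 46 wide regions were more accessible than with vehicle and 244 less, which is 1.60% and 8.51% of them. Over all tested regions 20.4% were called, 12.8% higher and 7.56% lower. As at 6 h, with TMM factors, all libraries and no replicate block, the share of falls was near the background and that of rises under it. With the replicate number as a block, 27.2% of wide regions fell at 18 h, against 11.8% of all, so falls were then above the background. Replicates of 10 nM lay wholly below vehicle in 535 wide regions (18.7%) and wholly above in 70 (2.44%), against 13.9% and 19.4% of all. The number of falls moved with the libraries that lay apart: without replicate 1 of 10 nM at 18 h there were 952, which is 33.2% of wide regions, against 11.5% of all. Without both libraries there were 1605, 56.0% of wide regions, against 15.0% of all, with a median of -0.62 for wide regions and 0.09 over all. The share that fell was then well above the background. Rises numbered 41 without replicate 1 of 10 nM and 46 without both, 1.43% and 1.60%, against 10.67% and 11.83% of all. Falls came to 113 without 10 nM replicate 3, 113 without vehicle replicate 1 and 126 without vehicle replicate 2. These were 3.94%, 3.94% and 4.39% of wide regions, against 6.05%, 4.84% and 5.46% of all, so here the share that fell was under the background. Rises came to 30 without vehicle replicate 1, 1.05%, against 8.49% of all. With loess offsets there were 179 rises and 148 falls, 6.24% and 5.16%, against 12.2% and 7.34% of all. With the covariate there were 390 and 285, 13.6% and 9.94%, against 14.6% and 11.5% of all. Under all 16 settings run for this comparison 26 of the 46 rises and 82 of the 244 falls were called in the same direction. The share over all tested regions was not worked out for this either.

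Several of the strongest responses at 18 h were in regions that had also moved at 6 h. At chr11:77810778-77812329 (1551 bp), 10 nM for 18 h gave 15.6, 10.9 and 15.5 CPM, against 3.88, 3.29 and 4.18 CPM with vehicle (3.70-fold, adjusted p = 6.23e-06). At chr6:30868946-30870745 (1799 bp), 10 nM for 18 h gave 23.3, 16.5 and 14.3 CPM, against 5.22, 3.81 and 7.13 CPM with vehicle (3.38-fold, adjusted p = 0.000309). At chr6:149381569-149383362 (1793 bp), a stronger region, 10 nM gave 43.1, 26.1 and 33.7 CPM, against 9.74, 10.9 and 11.1 CPM with vehicle (3.26-fold, adjusted p = 3.55e-05). The treated libraries of the last region spread more than the vehicle libraries, without overlap. At chrX:150157759-150159746 (1987 bp), 10 nM gave 9.01, 8.50 and 11.2 CPM, against 2.98, 3.65 and 3.24 CPM with vehicle, a rise of 2.90-fold (adjusted p = 8.86e-05).

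Among the falls at 18 h, chr20:52480655-52483422 was one of the wider regions (2767 bp). It had 19.9, 14.7 and 16.3 CPM with 10 nM for 18 h, against 101, 77.9 and 80.7 CPM with vehicle, and 28.3, 28.0 and 26.9 CPM with 10 nM for 6 h, against 134, 103 and 83.0 CPM with vehicle. The fall was 5.08-fold at 18 h and 3.85-fold at 6 h (adjusted p = 2.59e-07 and 9.81e-07). At chr21:22435205-22436784 (1579 bp), 10 nM for 18 h left 3.28, 3.27 and 3.08 CPM, against 18.3, 17.7 and 15.0 CPM with vehicle (5.28-fold, adjusted p = 5.81e-07), with close replicates in both groups. At chr4:133628799-133630347 (1548 bp), 10 nM for 18 h left 2.47, 1.96 and 2.05 CPM, against 19.1, 13.1 and 13.0 CPM with vehicle (6.84-fold, adjusted p = 9.39e-07). At chr10:24830290-24832085 (1795 bp), 10 nM for 18 h left 10.6, 6.71 and 10.5 CPM, against 45.4, 34.7 and 37.4 CPM with vehicle (4.20-fold, adjusted p = 4.36e-06).

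Many wide regions responded at both times, in comparisons with separate libraries. Of the 80 that rose at 6 h, 40 were also called higher at 18 h, which is 50.0% of that list and 87.0% of the 46 that rose at 18 h. Of the 259 that fell at 6 h, 164 fell at 18 h, 63.3% of that list and 67.2% of the 244. Over all tested regions, 60.8% of the rises at 6 h were called again at 18 h, making up 79.2% of the rises there, and for falls these shares were 58.3% and 64.9%. None of the wide regions was called in opposite directions, and 75 of the 80 and 258 of the 259 had the same sign at 18 h. Across all wide regions the log2 fold changes at the 2 times had r = 0.82 (n = 2868 regions, a description, since regions share libraries), and r was 0.83 over all tested regions. In all, 204 wide regions were called at both times, 135 at 6 h alone, 86 at 18 h alone and 2443 at neither. Those called at both times were 7.11% of the wide regions, against 15.1% of all tested regions. Called under every setting at both times were 24 rises and 60 falls, a count not worked out over all tested regions.

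**Figure D4:**
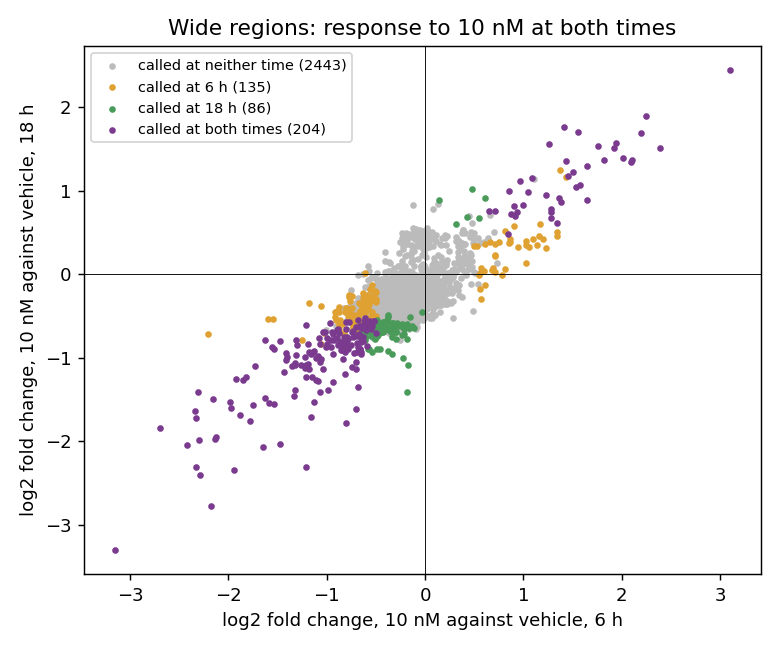
Log2 fold change of 10 nM against vehicle at 6 h (horizontal) and 18 h (vertical) for the 2868 wide regions, 1 point each, coloured by the times at which the region was called. The 204 regions called at both times lie at the lower left and upper right, and none was called in opposite directions.

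No wide region passed the test for a change of response between the times. In vehicle cells at 18 h against 6 h, edgeR called 0 wide regions and 0.0% of all tested regions, with 21 wide regions at an unadjusted p under 0.05 and 0 by DESeq2. For the change of the 10 nM response it called 0 wide regions, against 0.00151% of all tested regions, with 58 at an unadjusted p under 0.05 and 1 by DESeq2. For the change of the 0.1 nM response it called 0, against 0.0% of all, with 14 at an unadjusted p under 0.05 and 0 by DESeq2. A region called at 1 time alone is therefore not shown to respond differently at the other.

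The region that DESeq2 called for a change of the 10 nM response, named after its values were seen, was chr15:40762662-40764557 (1895 bp). It had 20.0, 23.6 and 20.1 CPM with 10 nM for 18 h, against 26.6, 24.9 and 26.6 CPM with vehicle, and 36.4, 32.5 and 34.5 CPM with 10 nM for 6 h, against 18.8, 24.5 and 26.2 CPM with vehicle. The treated libraries lay below vehicle at 18 h and above it at 6 h. The change was -0.87 on the log2 scale, with an adjusted p of 0.358 in edgeR and 0.0262 in DESeq2. Loess offsets called another, chr11:34675338-34677086, and the covariate 22. Chosen after its values were seen, as the one of these 22 that was over 3000 bp wide, chr14:74251161-74254197 had 79.4, 65.8 and 70.0 CPM with 10 nM for 18 h, against 55.5, 58.7 and 54.3 CPM with vehicle, and 114, 121 and 139 CPM with 10 nM for 6 h, against 60.6, 59.9 and 50.0 CPM with vehicle. It rose 2.20-fold at 6 h (adjusted p = 0.000112) and 1.28-fold, short of the threshold, at 18 h (adjusted p = 0.19); the change between times had an adjusted p of 0.561 without the covariate and 0.00663 with it.

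The lower dose changed few wide regions. With 0.1 nM for 6 h, 10 were higher and 9 lower than with vehicle, 0.349% and 0.314% of the wide regions, against 0.949% and 0.241% of all tested regions, of which 1.19% were called. With 0.1 nM for 18 h, 24 were higher and 9 lower, 0.837% and 0.314%, against 1.74% and 0.698% of all, of which 2.44% were called. Over the wide regions, same-numbered libraries of these groups deviated together at 18 h, with correlations of 0.84, 0.44 and 0.82. A fit with that number as a block called 37 higher and 22 lower there, 1.29% and 0.767%, against 2.75% and 1.31% of all. Counts were small and moved with single libraries. At 6 h rises came to 6 without vehicle replicate 2, and falls to 3, 4 and 5 without 0.1 nM replicate 1, 2 or 3, to 3 without vehicle replicate 1 and to 15 without vehicle replicate 3. Those rises were 0.209% of wide regions, against 0.420% of all. Those falls were 0.105%, 0.1395%, 0.174%, 0.105% and 0.523% in that order, against 0.0649%, 0.106%, 0.114%, 0.0528% and 0.350% of all. At 18 h rises came to 14 without 0.1 nM replicate 1, 13 without vehicle replicate 1 and 11 without vehicle replicate 2, and falls to 5 without 0.1 nM replicate 2 or vehicle replicate 1. All 10 that rose with 0.1 nM at 6 h were called higher with this dose at 18 h too, as were 9 of them with 10 nM at 18 h. Of the 9 that fell with 0.1 nM at 6 h, 6 were called lower with 0.1 nM at 18 h and 9 with 10 nM at 18 h. Among the 80 rises with 10 nM at 6 h were 15 regions that 0.1 nM raised at 18 h. Among the 259 falls were 7 that it lowered and 1 that it raised. These overlaps with 0.1 nM were not worked out over all tested regions, so they are not shown to be particular to wide regions.

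Some wide regions reached about the same level with either dose. At chr11:77810778-77812329, 0.1 nM for 6 h gave 14.3, 11.8 and 19.1 CPM, against 3.89, 3.13 and 3.64 CPM with vehicle, and 10 nM gave 15.5, 14.1 and 20.4 CPM. The rise was 4.29-fold with 0.1 nM (adjusted p = 3.32e-05) and 4.74-fold with 10 nM, and the doses differed by 0.14 ± 0.21 (SE) on the log2 scale (adjusted p = 0.7). At chr6:35693527-35696254 (2727 bp), the strongest of the named rises, 0.1 nM for 6 h gave 155, 124 and 170 CPM, against 50.9, 48.7 and 47.8 CPM with vehicle (3.05-fold, adjusted p = 0.000271), and 10 nM gave 122, 122 and 154 CPM. The doses overlapped there and differed by -0.17 ± 0.21 (adjusted p = 0.634).

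In a few regions the low dose moved accessibility by more than the high dose. At chr1:47272131-47273678 (1547 bp), 10 nM for 6 h gave 13.2, 12.1 and 15.0 CPM, against 23.8, 18.1 and 21.5 CPM with 0.1 nM; vehicle libraries had 5.15, 5.75 and 8.10 CPM. The 10 nM level was 1.57-fold under that of 0.1 nM without overlap (adjusted p = 0.0283), and at 18 h 1.52-fold under it (adjusted p = 0.0713). At chr3:161040551-161042184 (1633 bp), 10 nM for 6 h gave 13.9, 14.5 and 13.8 CPM and 0.1 nM 5.29, 6.02 and 5.24 CPM, against 18.9, 18.7 and 10.2 CPM with vehicle. Only the low dose passed the test against vehicle at 6 h (2.90-fold lower, adjusted p = 0.00147), and the doses differed (2.55-fold, adjusted p = 0.000364). At 18 h both doses lay below vehicle there, with 5.04, 6.22 and 3.36 CPM with 10 nM and 2.97, 3.66 and 3.79 CPM with 0.1 nM, against 14.1, 15.1 and 9.96 CPM with vehicle, and the doses did not pass the test against each other (adjusted p = 0.265).

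At chr7:142835668-142838579 (2911 bp) the doses moved the same region in opposite directions from vehicle, though at different times. With 0.1 nM for 18 h it had 29.7, 31.0 and 30.5 CPM, against 9.10, 8.95 and 12.8 CPM with vehicle (2.96-fold higher, adjusted p = 0.0219). With 10 nM for 6 h it had 2.86, 2.27 and 2.55 CPM, against 5.04, 7.59 and 9.71 CPM with vehicle (2.93-fold lower, adjusted p = 0.00545). The doses differed directly at both times, by 5.47-fold at 6 h and 4.28-fold at 18 h (adjusted p = 0.000117 and 0.000882). With 0.1 nM for 6 h the libraries had 6.00, 17.9 and 18.3 CPM, replicate 1 alone lying at the vehicle level. The call with 0.1 nM at 18 h was lost under 4 of the other settings, with an adjusted p of up to 0.14.

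**Figure D5:**
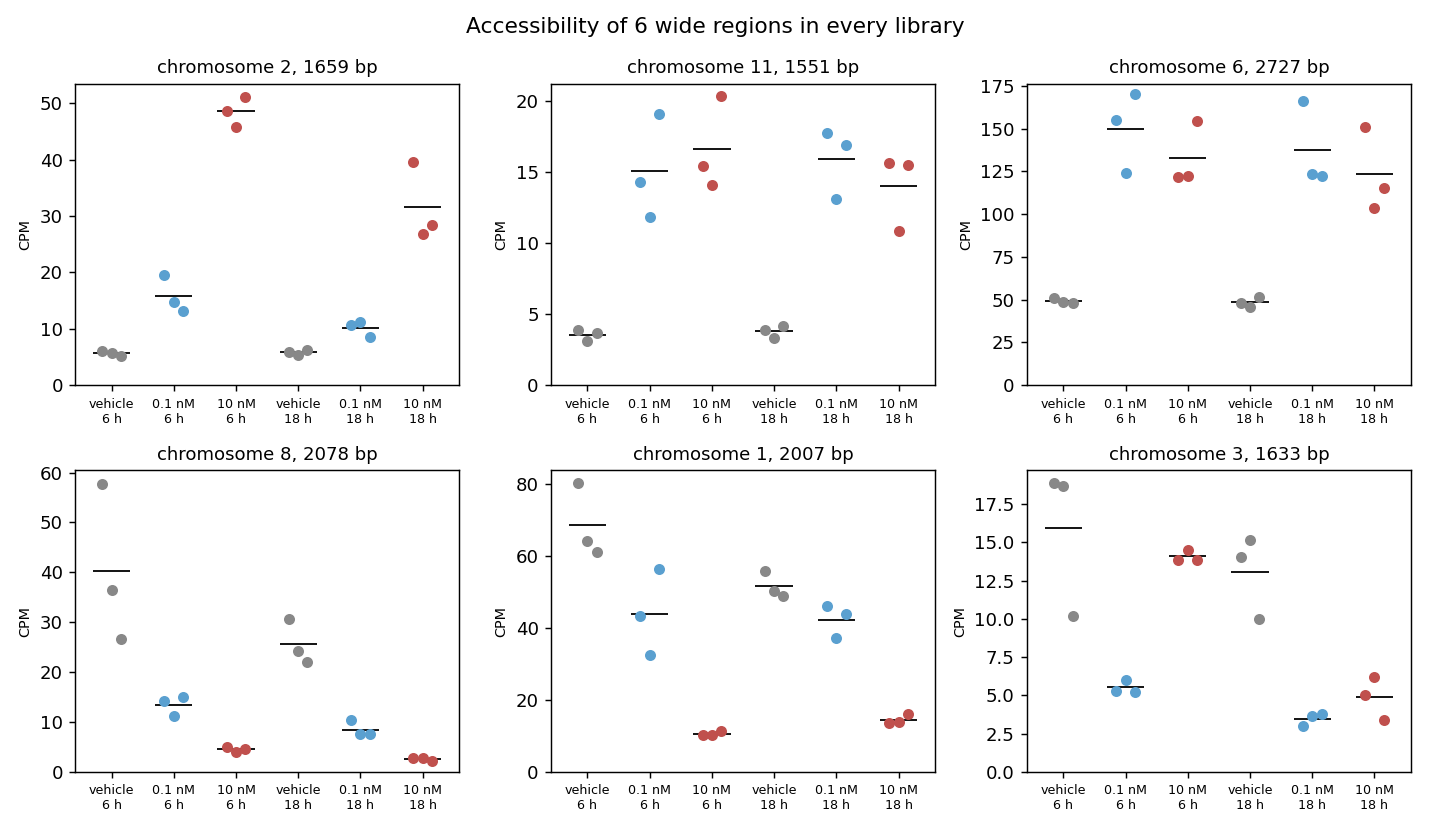
CPM in every library (points) and the mean of 3 libraries (lines) for 6 wide regions, by dose and time. In the upper row the chromosome 2 region rises with dose, and the chromosome 11 and chromosome 6 regions stand at about the same level with both doses; in the lower row the chromosome 8 and chromosome 1 regions fall with dose, and the chromosome 3 region is lowest with 0.1 nM at both times.

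Set directly against the lower dose, 10 nM at 6 h had 63 wide regions higher and 138 lower, 2.20% and 4.81%, against 15.1% and 5.25% of all tested regions, of which 20.4% were called. At 18 h 20 were higher and 100 lower, 0.697% and 3.49%, against 6.67% and 4.22% of all, of which 10.9% were called. The replicate numbers tracked each other between the doses at 18 h, and a paired fit, with that number as a block, called 32 higher and 179 lower there. These were 1.12% and 6.24% of wide regions, against 8.86% and 6.00% of all. Without the 2 libraries that lay apart, 1274 were lower at 18 h and 19 higher, 44.4% and 0.66%, against 11.4% and 7.07% of all. This depended on which library was dropped. The median log2 fold change of wide regions at 18 h was -0.19 with all libraries. It was -0.38 without 0.1 nM replicate 3 alone, and -0.01 without 0.1 nM replicate 1 alone. At 6 h falls came to 86 and 74 without 0.1 nM replicate 1 or 3, and to 73, 79 and 80 without 10 nM replicate 1, 2 or 3. In that order, these falls were 2.999%, 2.58%, 2.545%, 2.755% and 2.789% of wide regions. Over all tested regions the shares were 3.071%, 2.838%, 2.904%, 3.22% and 3.271%, so each share of wide regions was under the background. At 18 h rises came to 12 and 13 without 0.1 nM replicate 1 or 2, and to 12 without 10 nM replicate 1. These were 0.418%, 0.453% and 0.418%, against 3.80%, 4.24% and 4.07% of all. Loess offsets gave 194 higher and 121 lower regions at 6 h, 6.76% and 4.22%, against 13.49% and 5.71% of all. At 18 h they gave 81 higher and 92 lower regions, 2.82% and 3.21%, against 6.70% and 4.31% of all. The covariate gave 849 higher and 223 lower at 6 h, 29.6% and 7.78%, against 16.98% and 8.62% of all. At 18 h it gave 269 higher and 209 lower, 9.38% and 7.29%, against 9.94% and 7.08% of all. The largest difference upward at 18 h was in chr2:158646093-158647621, at 12.7, 9.08 and 9.14 CPM with 10 nM, against 3.26, 3.18 and 3.50 CPM with 0.1 nM (3.14-fold, adjusted p = 0.000582). At chr3:182799050-182800553 (1503 bp), 10 nM for 6 h gave 23.5, 21.0 and 31.6 CPM, against 7.41, 6.44 and 6.09 CPM with 0.1 nM (3.81-fold, adjusted p = 1.88e-05).

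Downward, chr6:12844495-12846251 (1756 bp) had 4.78, 3.52 and 5.30 CPM with 10 nM for 6 h, against 19.3, 12.3 and 29.9 CPM with 0.1 nM (4.52-fold, adjusted p = 1.35e-05). The low dose overlapped the vehicle libraries at 25.1, 16.8 and 18.4 CPM. At chr1:235098343-235099869 (1526 bp), 10 nM for 18 h gave 8.51, 9.81 and 8.20 CPM, against 34.4, 32.8 and 21.8 CPM with 0.1 nM (3.36-fold, adjusted p = 3.46e-05), and vehicle libraries had 24.2, 25.0 and 19.9 CPM. Both regions were below vehicle with 10 nM at both times, and neither passed the test with 0.1 nM.

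In some named regions the level within groups moved with the make-up of the library, and 4 of the named rises are described first. In each of the 6 groups, the library with the smallest share of counts in the 5000 strongest regions was the highest of its group in these 4 regions, except at chr1:142854179-142855761 with 10 nM for 6 h. At chr1:142854179-142855761 (1582 bp), 10 nM for 6 h gave 32.5, 25.5 and 30.0 CPM, against 4.94, 5.49 and 10.3 CPM with vehicle (4.26-fold, adjusted p = 0.000709). The 3 vehicle libraries had 41.7%, 38.7% and 37.0% of their counts in the 5000 strongest regions, so the region was highest where that share was smallest. The same order held in the 0.1 nM libraries at 6 h (4.61, 13.5 and 6.42 CPM, at 39.3%, 36.6% and 38.4%) and in all 3 groups at 18 h, though not within 10 nM at 6 h. At chr11:2961310-2963077 (1767 bp), 10 nM for 6 h gave 20.0, 19.3 and 22.8 CPM, against 3.36, 4.86 and 7.93 CPM with vehicle (3.83-fold, adjusted p = 0.00111), with 4.84, 14.6 and 4.22 CPM in the 0.1 nM libraries. At chr21:10198992-10200789 (1797 bp), 10 nM for 6 h gave 11.8, 8.90 and 11.8 CPM, against 1.92, 4.12 and 2.05 CPM with 0.1 nM (4.12-fold, adjusted p = 0.00203). At chr15:20480916-20482468 (1552 bp), 10 nM for 6 h gave 26.6, 24.3 and 27.1 CPM, against 4.84, 9.90 and 5.50 CPM with 0.1 nM (3.89-fold, adjusted p = 0.000246). All 4 kept their calls with that share as a covariate; what part of the rises goes with it was not tested. Among the widest and densest regions chr1:142535700-142539309 (3609 bp) and chr18:107185-110021 (2836 bp) followed the same order in every group but 10 nM at 6 h. They ran from 50.1 to 688 CPM and from 395.5 to 3641 CPM over the 18 libraries and passed none of the tests between doses. The rise chr6:35535927-35537762 was highest at the smallest share in every group but 0.1 nM at 6 h. Some named falls had the reverse order. At chr9:12825599-12827427 the library with the smallest share was the lowest of its group in all 6 groups. At chr8:108619905-108621983 and chr21:22435205-22436784 this held in every group but 10 nM at 6 h. What part of these falls goes with the share was not tested.

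Calls in neighbouring regions differed with the call of the wide region. Among other regions within 50 kb of the 80 wide regions that rose with 10 nM at 6 h, 25.0% of 840 rose and 5.36% fell. Around the 259 that fell, 14.1% of 2093 rose and 18.6% fell, and around the 2529 not called, 18.3% of 16883 rose and 7.42% fell. At 18 h 19.7% rose and 4.71% fell around rises, 9.83% rose and 14.2% fell around falls, and 13.6% rose and 6.16% fell around uncalled wide regions. Of 83 pairs of wide regions within 10 kb of each other, 4 had both members called at 6 h and 2 at 18 h, in the same direction each time. These shares are a description of neighbouring regions in the same libraries, with no test.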

How the data were processed

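Omni-ATAC-seq was measured in 18 libraries, 3 in each of 6 groups. The authors deposited 1 table of raw counts, reads in each region, with no normalization; its columns were matched to samples by name; the number of other sample columns left unused was 0. BWA, MACS2 and hg19 are named per the submitters' processing notes. Not given in the sources used here are the versions of these, filters on reads, a shift for Tn5 insertion and how regions were merged. The list of regions came from these cells.

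The test was edgeR 4.0.16, run in R 4.3.3. After filterByExpr (a minimum count of 10 and a minimum total of 15), 132304 regions remained; the 300 left out held no wide region. TMM factors scaled the libraries, and quasi-likelihood tests were run in 1 fit of all 18 libraries with 12 residual degrees of freedom. A call was an adjusted p under 0.05 (Benjamini-Hochberg, over all tested regions of a comparison). The SE is the log2 fold change divided by the square root of F, and fold changes are given as sizes with the direction in words. Log2 CPM used a prior count of 2. Shares of counts were compared by exact two-sided permutation with scipy 1.17.1 in Python 3.11.15. The scripts were tested on simulated data.

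The labels do not say that replicates were separate cultures, so the spread behind the p-values may be technical. Over all tested regions, same-numbered libraries deviated together (every correlation over 0.1) between 10 nM and 0.1 nM at 18 h (0.60, 0.19 and 0.45) and between vehicle at 18 h and at 6 h (0.32, 0.12 and 0.45). Over the wide regions alone, this also held between 0.1 nM and vehicle at 18 h (0.84, 0.44 and 0.82, against 0.45, 0.098 and 0.46 over all).

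Named regions were the 8 largest called rises and falls per comparison of 10 nM with vehicle, 5 each for 0.1 nM and 3 each between doses, among those without overlap of replicates, and the extremes of width, level and variation; a selection of them is described. The members, lists and tests were chosen with earlier results of these data known. Alternatives were RLE factors, total counts, loess offsets (span 0.4, limma 3.58.1), no filter, a replicate block, the compared groups alone, DESeq2 1.42.0 and single libraries left out. Leaving out the 2 libraries that lay apart and the covariate were chosen after seeing the data.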

Additional observations from a re-analysis of the deposited data

How the results depend on the processing

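Counts of wide regions called in a comparison of doses moved by more than 1.5 times under the following settings, and the cause was not tested. For 10 nM against vehicle at 6 h (80 higher, 259 lower), higher regions numbered 130 with total counts, 229 with loess offsets and 885 with the covariate, and lower regions 554 with the replicate block and 451 in the compared groups alone. The 130 were 4.53% of wide regions, against 17.3% of all, and the 451 were 15.7%, against 10.1%. For 10 nM against vehicle at 18 h (46 higher, 244 lower), higher regions numbered 85 with total counts, 179 with loess offsets and 390 with the covariate. Lower regions numbered 148 with loess offsets, 780 with the replicate block, 101 in the compared groups alone and 1605 without the 2 libraries that lay apart. The 85 were 2.96% and the 101 were 3.52% of wide regions, against 13.9% and 4.88% of all. With the block, falls were 19.3% of wide regions at 6 h and 27.2% at 18 h, against 11.6% and 11.8% of all, so the share that fell was above the background. Higher regions were 23.6% of the wide calls at 6 h and 15.9% at 18 h, against 49.1% and 54.7% with loess offsets and 77.6% and 57.8% with the covariate.

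For 0.1 nM against vehicle at 6 h (10 higher, 9 lower), higher regions numbered 23 with total counts, 23 with loess offsets, 21 with the block, 18 with DESeq2 and 47 with the covariate, and lower regions 19 with loess offsets, 17 with the block, 5 in the compared groups alone, 14 with DESeq2 and 53 with the covariate. In that order, the higher were 0.802%, 0.802%, 0.732%, 0.628% and 1.64% of wide regions, against 1.19%, 1.13%, 1.455%, 1.28% and 2.18% of all. The lower were 0.6625%, 0.593%, 0.174%, 0.488% and 1.85%, against 0.358%, 0.565%, 0.173%, 0.505% and 0.834% of all. For 0.1 nM against vehicle at 18 h (24 higher, 9 lower), higher regions numbered 40 with total counts, 51 with loess offsets, 37 with the block, 40 without the 2 libraries and 71 with the covariate, and lower regions 16, 17, 22 and 28 with total counts, loess offsets, the block and the covariate. The higher were 1.395%, 1.78%, 1.29%, 1.395% and 2.48% of wide regions in that order, against 2.17%, 2.22%, 2.75%, 2.48% and 3.62% of all. The lower were 0.558%, 0.593%, 0.767% and 0.976%, against 0.701%, 0.755%, 1.31% and 1.305% of all. For 10 nM against 0.1 nM at 6 h (63 higher, 138 lower), higher regions numbered 101 with total counts, 194 with loess offsets, 107 in the compared groups alone and 849 with the covariate, and lower regions 256 with the block, 381 in the compared groups alone and 223 with the covariate. The 101 and 107 were 3.52% and 3.73% of wide regions, against 14.9% and 18.1% of all. The 256 and 381 were 8.93% and 13.3%, against 7.29% and 6.93% of all, so falls were then above the background. At 18 h (20 higher, 100 lower), higher regions numbered 34 with total counts, 81 with loess offsets, 32 with the block, 4 in the compared groups alone and 269 with the covariate, and lower regions 179 with the block, 32 in the compared groups alone, 1274 without the 2 libraries and 209 with the covariate. The 34 were 1.185% of wide regions, against 6.42% of all. In the compared groups alone the higher were 0.1395%, against 3.69%, and the lower 1.12%, against 1.37%. The change of the 10 nM response between times was called in 1 wide region with loess offsets, 1 with DESeq2 and 22 with the covariate, against 0. The share over all tested regions under those settings was not worked out.

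The median log2 fold change of wide regions minus that of all regions turned from -0.27 to 0.0368 with loess offsets and 0.184 with the covariate for 10 nM against vehicle at 6 h, and from -0.18 to 0.0868 and 0.169 for 10 nM against 0.1 nM at 6 h. The sign also turned, by less than the spread between replicates, at 18 h from -0.39 to 0.0211 and 0.103 for 10 nM against vehicle and from -0.18 to 0.0401 and 0.0935 for 10 nM against 0.1 nM, and for 0.1 nM against vehicle from -0.18 to 0.0214 with the covariate and 0.0292 without the 2 libraries, and at 6 h from -0.06 to 0.0347 with the covariate.

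Without single libraries, 10 nM against vehicle at 6 h gave 66 to 78 higher and 113 to 397 lower, 0.1 nM 6 to 12 and 3 to 15, and 10 nM against 0.1 nM 51 to 60 and 73 to 117. At 18 h these were 30 to 46 and 113 to 952, 11 to 28 and 5 to 9, and 12 to 22 and 68 to 143. The difference of medians ran from -0.46 to -0.14, -0.20 to 0.05 and -0.32 to -0.11 at 6 h, and from -0.71 to -0.17, -0.42 to 0.03 and -0.47 to -0.02 at 18 h. The difference in the share of counts kept its sign, from -2.30 to -1.70, -0.93 to -0.33 and -1.46 to -1.21 points at 6 h, and from -2.05 to -1.41, -0.94 to -0.22 and -1.48 to -0.82 points at 18 h. Of 64 calls of named regions, 5 were lost under at least 1 setting, all with 0.1 nM, and none turned round.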
